A study of Mus musculus with 4 samples.

Results

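The mouse Hist1 cluster on chromosome 13 holds most of the genes for the histones that package newly copied DNA, and it lies in a pair of blocks with more than a megabase between them. The data describe the long-range contacts of these blocks in embryonic stem cells of 2 mouse strains, measured by H3K27ac HiChIP. All pairs of contact anchors on chromosome 13 with at least 1 anchor overlapping chr13:21650000-22100000 (part 1) or chr13:23400000-23850000 (part 2), in GRCm38 coordinates, were taken. They were 1823 of the 1513030 anchor pairs of the whole table, and 247 of the 108034 pairs that had at least 20 counts over the 4 libraries. The parts held 33 of the 56562 anchors, 20 in part 1 and 13 in part 2.

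HiChIP joins DNA ends that lie close together in fixed nuclei and then keeps the junctions that an antibody pulls down, here an antibody to histone H3 acetylated at lysine 27, a mark of active promoters and enhancers. A pair of anchors gains counts by touching more often and by carrying more of the mark, among other things, and these cannot be told apart here. DBA/2J sequence and copy number, which can also change how many D2 reads map to an anchor, were not analysed here. The B6 group was C57BL/6J (lines B6 4-1 and B6 5-1) and the D2 group was DBA/2J (lines D2 2-9 and D2 5-5), with 1 library per line. All lines grew in serum with LIF and with the inhibitors PD0325901 and CHIR99021, and chromatin was cut with DpnII. The labels name no engineered allele and no treatment that differs between lines. The libraries held between 2767882 and 2944258 counts, and the members took 0.213%, 0.237%, 0.283% and 0.229% of them in B6 replicate 1, B6 replicate 2, D2 replicate 1 and D2 replicate 2. Values for the 4 libraries are given in that order throughout. Anchors over the start sites of the 7 stem cell genes Pou5f1, Sox2, Nanog, Klf4, Prdm14, Zfp42 and Tbx3 had a median of 240 CPM (counts per 1e6 counts of the library), against 16.9 for the 4 of 7 genes of other lineages that had an anchor (Pax6, Neurod1, Cdx2 and Sox17). Myod1 and Hand1 had none. Gata1 could have none, since it lies on the X chromosome and only start sites on numbered chromosomes were taken. The name of the D2 replicate 1 library ends in 10cyc and the other names in 8cyc, which the labels do not explain, and that library was the highest in several sums given here.

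Replication-dependent histone genes are transcribed in S phase by RNA polymerase II, and their messages end in a stem-loop in place of a poly(A) tail. The proteins that make and trim them gather on the genes in a nuclear compartment called the histone locus body. Transfer RNA genes, which RNA polymerase III transcribes from promoter elements inside the gene, lie among the histone genes on this chromosome. The annotation placed 53 Hist1h start sites in the parts: 24 in part 1, which were all on an anchor, and 29 in part 2, of which 15 were. By class, part 1 had 1 H1, 8 H2A, 8 H2B, 2 H3 and 5 H4 genes, and part 2 had 5, 5, 6, 7 and 6. RefSeq placed 34 tRNA genes in part 1 and 35 in part 2, of 105 on chromosome 13 and 386 on all autosomes, and all but 2 of those 69 lay on an anchor. Abt1, which encodes a basal transcription activator, and the butyrophilin genes Btn1a1 and Btn2a2 begin in the tRNA-rich end of part 2. The zinc finger gene Zfp184 begins in the tRNA-rich middle of part 1.

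Sequences are shown here for tRNA genes, since the counts between the parts turned out to lie mostly between anchors that hold them. Each is shown on its coding strand from RefSeq on GRCm38, with the letters GTTCGA, the core of the internal B box to which polymerase III factors bind, in capitals. These letters occurred in 45 of the 69 tRNA genes of the parts (65.2%) and in 239 of the 386 autosomal ones (61.9%). The pair of genes for serine tRNA has the same sequence on the Zfp184 anchor of part 1 and on the Btn2a2 anchor of part 2. The last gene, for valine tRNA, lies on the first anchor of part 2.
n-TStga2, chr13:21924935-21925016, minus strand: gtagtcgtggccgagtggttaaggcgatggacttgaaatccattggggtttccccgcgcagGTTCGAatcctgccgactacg
n-TStga1, chr13:23518146-23518227, plus strand: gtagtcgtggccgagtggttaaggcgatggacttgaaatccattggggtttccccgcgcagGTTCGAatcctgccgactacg
n-TVaac2, chr13:23401073-23401145, minus strand: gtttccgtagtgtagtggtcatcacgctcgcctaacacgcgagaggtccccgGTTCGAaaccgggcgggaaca

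Of the tRNA genes, 13 of 34 in part 1 had a gene of identical sequence in part 2, and 9 of 35 in part 2 had one in part 1, from 7 shared sequences. Among all stretches of 75 bases, the length of a read, 86.0% in part 1 and 95.4% in part 2 occurred once in the assembled chromosomes of GRCm38, against 79.0% in the interval between. Among the anchors with the most counts the share was 99.3% for Abt1, 98.9% for Btn2a2, 99.8% for Zfp184, 98.5% for Mir1983 and 94.9% for Hist1h2ag. For that of Hist1h4n, Hist1h2ap and Hist1h2br, also among them with 728, 788, 1052 and 996 counts, the share was only 61.2%. It was 7.60% for the anchor of Hist1h2bq, Hist1h2ao and Hist1h4m, which had 38, 28, 59 and 52 counts, and 2.54% for an anchor at chr13:21764300-21767324 that had 2 counts in all.

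Histone promoters are shown for the H2A-H2B pair and the H4 gene on the anchor of Hist1h4k, Hist1h2ak and Hist1h2bn, which had more contacts in D2, and beside them the promoter of Abt1, which is no histone gene but lies on the anchor with the most counts summed over the 4 libraries. Capitals mark matches to motifs that were searched on both strands. The TATA box was searched as TATAAA. The box to which NF-Y binds was searched as CCAAT. The octamer of Oct factors was searched as ATTTGCAT. For the H4 promoter element, to which Hinfp binds, the letters were GTCCG. For the H1 promoter element they were AAACACA. None of these motifs contains another. Hist1h2ak and Hist1h2bn start back to back, so that their shared sequence is the stretch between the RefSeq starts. The others are the 250 bases before the start.
Hist1h2bn and Hist1h2ak, chr13:21753913-21754075, plus strand: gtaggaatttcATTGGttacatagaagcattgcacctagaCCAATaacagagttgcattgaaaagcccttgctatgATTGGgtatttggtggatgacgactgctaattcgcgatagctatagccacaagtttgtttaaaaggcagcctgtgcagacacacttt
Hist1h4k, chr13:21750554-21750803, minus strand: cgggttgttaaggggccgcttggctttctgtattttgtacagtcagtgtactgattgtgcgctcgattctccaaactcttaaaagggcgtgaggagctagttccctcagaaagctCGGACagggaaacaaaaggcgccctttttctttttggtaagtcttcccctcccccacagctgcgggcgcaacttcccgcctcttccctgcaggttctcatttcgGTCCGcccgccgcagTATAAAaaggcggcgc
Abt1, chr13:23423867-23424116, minus strand: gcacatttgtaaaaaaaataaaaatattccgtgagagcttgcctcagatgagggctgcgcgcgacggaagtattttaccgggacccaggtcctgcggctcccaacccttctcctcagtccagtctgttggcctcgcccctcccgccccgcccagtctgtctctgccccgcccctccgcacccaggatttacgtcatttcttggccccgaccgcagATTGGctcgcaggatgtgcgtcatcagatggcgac

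Of the 53 histone genes, 49 had a promoter in the RefSeq table, which holds 27025 promoters. Within 250 bases before the start, CCAAT occurred in 41 of the 49 (83.7%) and in 34.5% of all promoters. It was in every H1, H2A, H2B and H3 promoter of the parts and in 3 of 11 H4 promoters. GTCCG occurred in 10 of 11 H4 promoters and in 7 of the other 38, and in 19.3% of all promoters. AAACACA occurred in 5 of 6 H1 promoters and in 6.22% of all promoters, the octamer in 8 histone promoters, all of H2A or H2B, and in 1.61% of all, and TATAAA in 24 histone promoters (49.0%) and in 3504 of all 27025. Many H2A and H2B genes start back to back, like Hist1h2ak and Hist1h2bn, so that a match can count for both genes. Their promoters are therefore not all separate sequences. These matches describe letters in a window and not binding.

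The parts contacted each other across more than a megabase far more than other regions at that distance did. The 186 pairs between the parts held 847, 848, 979 and 771 counts, with means of 297 ± 8.16 CPM (B6) and 308 ± 64.9 CPM (D2; SD, n = 2 each). The D2 libraries lay on either side of both B6 libraries, and the log2 ratio of D2 to B6 was 0.05. The expected count was the mean over all possible anchor pairs of the autosomes in 100 kb bins of distance. Against it the count between the parts was 26.6, 29.1, 36.2 and 26.2 times as high (mean 29.5 ± 4.61, SD, n = 4). Anchors of the parts are wide, and a wide anchor collects more counts: with each pair weighted by the widths of its anchors the ratio was 5.90 ± 0.925 (SD, n = 4), and with the total counts of its anchors 3.71 ± 0.443 (SD, n = 4). Contacts inside the parts were less far above expectation, at 2.71, 3.18, 4.47 and 3.63 times within part 1 and 4.67, 5.06, 4.74 and 3.90 times within part 2 by distance alone. With widths these fell to 0.870 ± 0.186 and 1.11 ± 0.118 (SD, n = 4), close to what their anchors' size and distance gave anywhere on the autosomes.

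Window pairs of the same size and spacing were compared over the autosomes. Of 4988 such pairs, 1 reached the 302 CPM of the parts (mean over the 4 libraries), and that pair covered most of the parts themselves. The median pair held 0.965 CPM, and the next highest, on chromosome 10, held 106 CPM. With the starts of the windows shifted, none of 4980 pairs reached 302 CPM, and the highest, on chromosome 19, held 221 CPM. The 302 CPM was taken at the limits of the parts, whereas the other windows lay on a fixed grid. On the shifted grid, which splits the parts, the highest pairs were all on other chromosomes, so the rank depends in part on where windows are placed. The parts together could form 260 anchor pairs where the median window pair could form 72. In the authors' deposited q-values, 90, 90, 98 and 91 of the 186 pairs between the parts were under 0.01, and 52 were under it in all 4 libraries. Few counts were needed: the pair of Zfp184 with the first anchor of part 2 had 2 counts in B6 replicate 1 and a q-value of 0.000265. The share under 0.01 over all pairs of the table was not computed, so these numbers have no background to be read against.

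**Figure D1:**
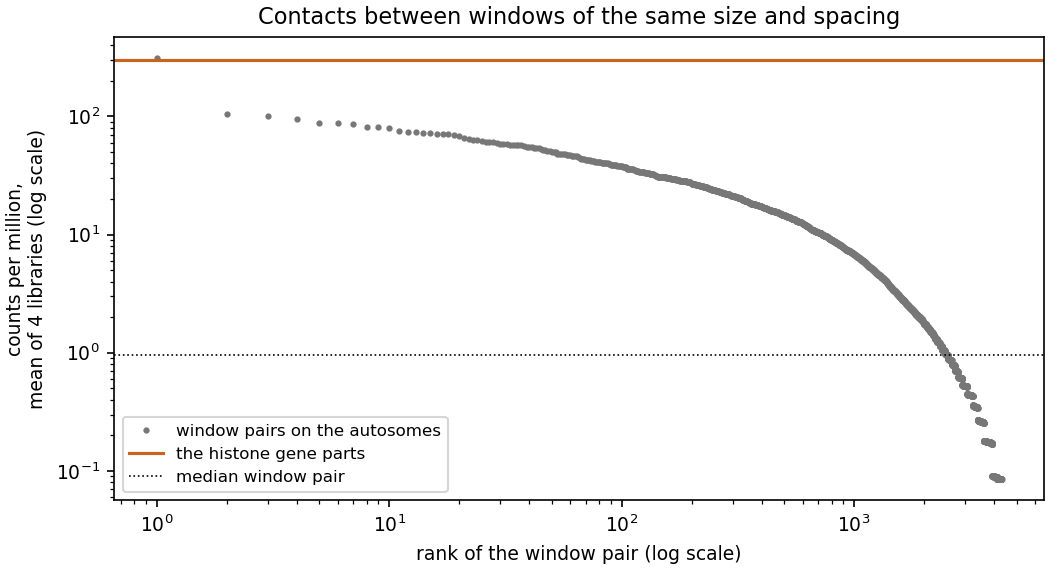
CPM between windows of the same size and spacing as the parts (vertical axis, log scale, mean of the 4 libraries) against the rank of the window pair (horizontal axis, log scale). The line for the histone gene parts lies at 302 CPM, the median window pair at 0.965 CPM, and the single point above the line overlaps the parts.

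Anchors with tRNA genes held most of the counts between the parts. This grouping was chosen after the contacts had been seen and has no test. Pairs in which both anchors held tRNA genes made up 50 of the 257 possible pairs and 2377 counts, 69.0% of those between the parts. Their counts were 91.7 ± 14.7 times the expectation from distance (SD, n = 4), against 13.5 to 18.3 over the libraries with 1 such anchor (mean 15.5) and 5.01 ± 1.59 (SD, n = 4) with none. With anchor widths in the expectation the order was the same, at 9.88 ± 1.59, 3.31 ± 0.447 and 2.31 ± 0.730 (SD, n = 4). The expectation from total counts of the anchors was not taken for these groups. A difference in total signal between kinds of anchor was thus not tested. Anchors with tRNA genes but no histone gene start had 14584 counts over 88818 bp (part 1) and 10986 over 98464 bp (part 2). Those with histone gene starts but no tRNA gene had 3766 over 58308 bp and 3975 over 76938 bp. Pairs with histone gene starts at both anchors, with or without tRNA genes, had 363 counts and a ratio of 41.1 ± 11.0 (3.52 ± 0.942 with widths; SD, n = 4). No ratio was taken for pairs with 1 or no histone anchor. Pairs of histone anchors without tRNA genes had 94 counts and a ratio of 22.2 ± 7.99 (2.70 ± 0.970 with widths), and pairs of tRNA anchors without histone gene starts had 1557 counts and a ratio of 84.3 ± 13.1 (13.8 ± 2.18 with widths; SD, n = 4). Part 2 shows the separation most plainly, since none of its 5 tRNA anchors held a histone gene start and none of its 4 histone anchors held a tRNA gene.

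By distance alone the same order appeared within the parts, where pairs with 1 tRNA anchor were at 2.02 ± 0.362 in part 1 and 3.20 ± 0.388 in part 2 (SD, n = 4). Within part 1 the ratio was 8.94 ± 1.89 for pairs of tRNA anchors and 0.935 ± 0.382 for pairs without them, and within part 2 it was 11.0 ± 1.45 and 2.63 ± 0.445 (SD, n = 4, from distance alone). With widths these were 1.30 ± 0.278 and 0.553 ± 0.224 in part 1, and 1.46 ± 0.194 and 1.00 ± 0.169 in part 2 (SD, n = 4). Pairs with 1 tRNA anchor were then at 0.543 ± 0.0971 in part 1 and 0.761 ± 0.0877 in part 2 (SD, n = 4), not above pairs with none. Elsewhere on the autosomes tRNA anchors at these distances, 1.36 to 1.99 Mb apart, formed only 17 possible pairs on 2 chromosomes, with 10 counts in all and a ratio of 1.53 ± 0.367 (SD, n = 4). So few pairs allow no comparison beyond giving the values side by side.

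**Figure D2:**
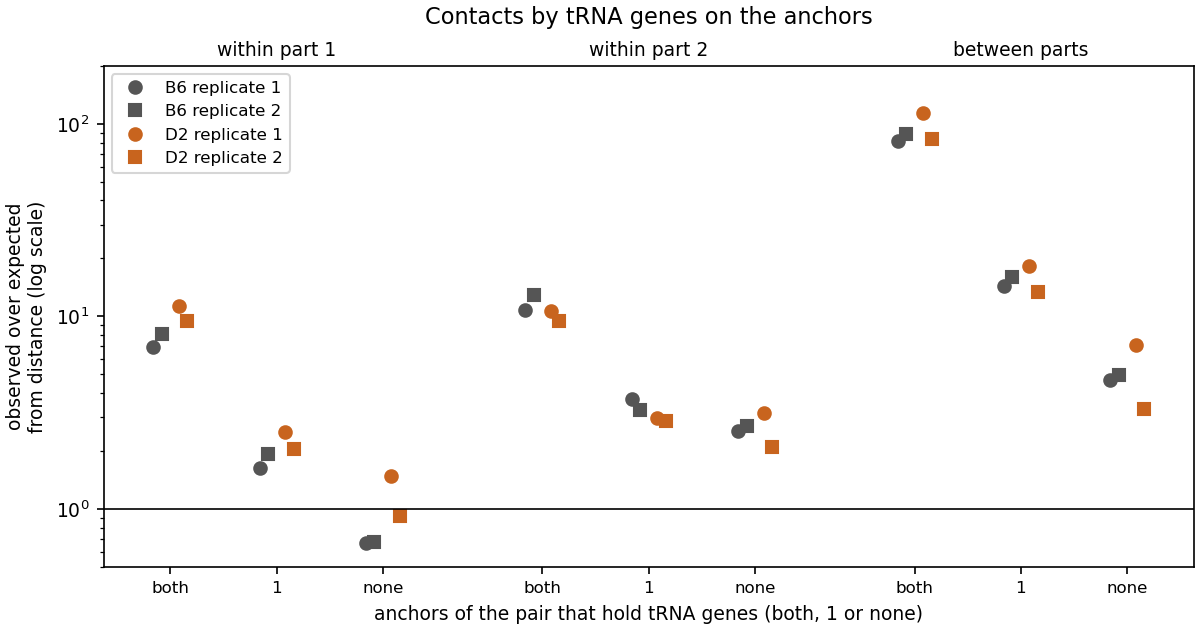
Observed over expected counts from distance alone (vertical axis, log scale) for pairs in which both, 1 or none of the anchors held tRNA genes, within part 1, within part 2 and between the parts, with 1 point per library. Pairs of tRNA anchors between the parts sit from 81.1 to 113 in the 4 libraries, above every other set.

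The Abt1 anchor (chr13:23421416-23455039), with 14 tRNA genes, had 1009, 1101, 1201 and 988 counts, the highest sum over the 4 libraries of any anchor in the parts. It was the highest in no single library: Btn2a2 was above it in both B6 libraries (1027 and 1150 counts) and Mir1983 in both D2 libraries (1245 and 1120). Of the Abt1 counts, 263, 263, 397 and 278 were with part 1, where Btn2a2 had 271, 266, 121 and 99, so that Btn2a2 was slightly above Abt1 in B6 and far below it in D2. The 3 pairs between the parts with the highest sums over the 4 libraries had Abt1 at their telomeric end. In B6 alone the pair of Mir1983 with Btn2a2, at 56 and 53 counts, was above the pair of Mir1983 with Abt1. With the Zfp184 anchor (chr13:21923147-21947899, 8 tRNA genes), 1.50 Mb away, Abt1 had 61, 48, 88 and 52 counts, and D2 replicate 1 was above the other libraries. With the Mir1983 anchor (chr13:21894902-21922035, 8 tRNA genes) Abt1 had 45, 47, 71 and 55 counts, and both D2 libraries were above both B6 libraries. With the Hist1h2ag anchor (chr13:22025032-22053701, 4 tRNA genes and 5 histone gene starts) Abt1 had 41, 36, 63 and 26 counts, and the D2 libraries were the highest and the lowest. None of these 3 pairs of Abt1 passed the test between strains (log2 fold changes 0.30, 0.39 and 0.15, with adjusted p = 0.716, 0.601 and 0.910, edgeR quasi-likelihood).

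Histone anchors of part 2 also met part 1. The anchor at chr13:23734691-23781115, which holds 9 histone gene starts from Hist1h1c to Hist1h1a and no tRNA gene, had 100, 95, 105 and 57 counts with part 1, and the anchor of Hist1h2ac and Hist1h2bc had 28, 33, 30 and 20. In part 1 the anchor of Hist1h1b, Hist1h3i, Hist1h2an and Hist1h2bp, without tRNA genes, had 46, 34, 38 and 27 counts with part 2. Per kilobase of anchor, the counts with the other part over the 4 libraries were 7.69, 8.13 and 7.11 for these anchors, against 35.7 for Abt1 and 21.2 for Mir1983. The kinds of anchor overlapped on this scale. Anchors with tRNA genes ran from 4.27, on the Hist1h2bl anchor, to 35.7, and those without from 0 to 27.6. The highest without was a narrow anchor between Abt1 and Btn1a1, and that of Prss16, a thymus serine protease gene, reached 21.9.

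**Figure D3:**
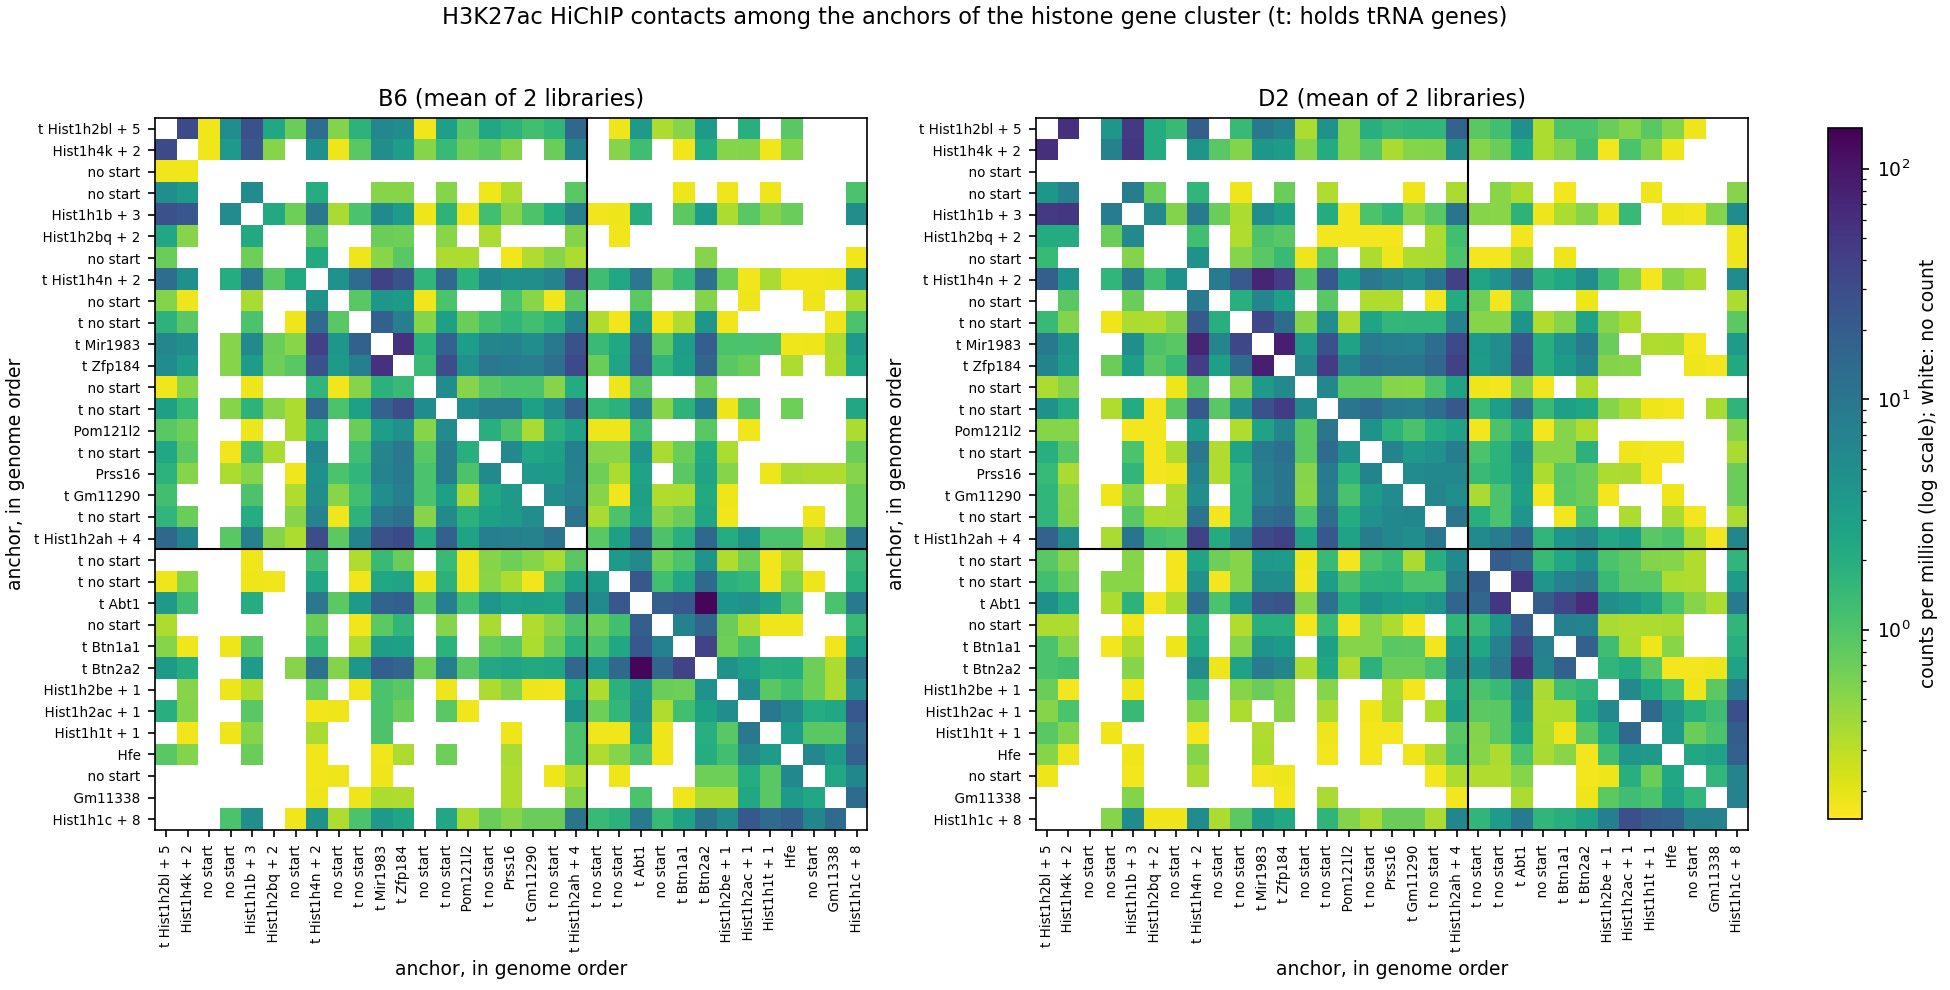
Mean CPM (colour, log scale; white where no count was found) for each pair of the 33 anchors in genome order in B6 (left) and D2 (right), with lines between part 1 and part 2 and the letter t before anchors that hold tRNA genes. Outside the diagonal blocks, the Abt1 and Btn2a2 rows are the darkest between the parts in B6, and the Btn2a2 row is paler in D2.

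Outside the parts, the anchors with the most counts often held tRNA genes. They were 8 of the first 10 for part 1 and 5 of the first 10 for part 2, the first 4 among them. By comparison, 11 of 34 anchors in the megabase centromeric of part 1 held tRNA genes, as did 6 of 30 in the interval between. None of the 21 anchors in the megabase telomeric of part 2 did. The highest for part 1 was an anchor with 3 tRNA genes and no gene start at chr13:21213525-21236070, with 166, 149, 159 and 139 counts, followed by that of Trim27, a ubiquitin ligase gene, with 7 tRNA genes and 141, 139, 138 and 104 counts. From part 1 to the centromeric side, outside anchors with tRNA genes had 5.62 ± 0.506 times the expected counts and those without 1.27 ± 0.137 (SD, n = 4). To the interval between the parts these were 7.32 ± 1.29 and 1.05 ± 0.165 (SD, n = 4). From part 2 to that interval they were closer, at 1.76 ± 0.217 and 0.849 ± 0.137 (SD, n = 4). All these were from distance alone. With widths the means were, in the same order, 1.80 and 0.752, 4.10 and 0.686, and 1.13 and 0.472. No tRNA gene lay in the megabase on the telomeric side of part 2. Over all pairs from part 2 to that side, up to 1980 kb apart, the ratio was 1.52 ± 0.244 (0.783 ± 0.126 with widths; SD, n = 4). The nearest histone anchor there, with the testis genes Hist1h2ba and Hist1h2aa, had 27, 27, 28 and 23 counts in all. At the limits of the parts, the first anchor inside part 2 overlaps its edge and had 102, 130, 317 and 302 counts, and the next anchor outside it had 79, 76, 87 and 74.

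The comparison of strains asked which contacts of the cluster differ between B6 and D2 cells. The clearest differences were at the tRNA end of part 2. Contacts of the Btn2a2 anchor fell in D2, and those of the pair of anchors just centromeric of Abt1 rose. Within part 1 contacts were higher in D2 at nearly every anchor, by less. Of the 247 member pairs tested, 9 rose and 10 fell in D2 (19 in all, 7.69%), whereas of all 108034 pairs tested 0.492% rose, 0.957% fell and 1.45% changed either way. Of 32 anchors tested, 5 rose and 2 fell (21.9%), whereas of all 51820 anchors tested 2.67% rose, 7.08% fell and 9.75% changed. The adjusted p-values were taken over all pairs or anchors of the table, with a threshold of 0.05 (edgeR quasi-likelihood, Benjamini-Hochberg). The number of calls depended on the settings: the replicate block gave 18 member pairs and 12 member anchors, and leaving out D2 replicate 2 gave 19 and 16. DESeq2 called 2 member pairs and 3 member anchors. Without B6 replicate 1 or B6 replicate 2, edgeR called 5 and 4 pairs, and 3 anchors each time. All 19 pairs kept their sign with all 4 libraries in each setting tried.

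The Btn2a2 anchor (chr13:23483245-23523596) covers the start of a butyrophilin gene, a cell surface protein of the immunoglobulin family, and 12 tRNA genes. Its total was 1027 and 1150 counts in B6 and 510 and 444 in D2, and both D2 libraries were far below both B6 libraries. The means were 382 ± 40.6 CPM (B6) and 168 ± 23.7 CPM (D2; SD, n = 2 each). The log2 fold change was -1.15 ± 0.18 (SE; adjusted p = 8.11e-06, edgeR), and it was called in every setting tried, DESeq2 and each left-out library included. Of its 25 tested pairs 24 had a log2 fold change below 0, and their median was -1.30. Its total is made up of its pairs, so their signs are no separate support. Of all 108034 pairs tested, 55248 had a log2 fold change above 0. All 10 member pairs that fell in D2 had this anchor at an end. With Abt1 it had 352 and 425 counts in B6 and 204 and 152 in D2, the most of any pair in part 2, with a log2 fold change of -1.19 ± 0.22 (SE; adjusted p = 4.71e-05, edgeR). That call held with DESeq2 (adjusted p = 0.00122) and was lost without B6 replicate 2 (adjusted p = 0.168, edgeR). With the Btn1a1 anchor it had 110 and 105 counts in B6 and 49 and 50 in D2 (log2 fold change -1.18 ± 0.25, SE; adjusted p = 0.000542, edgeR). With the 9 histone gene starts at chr13:23734691-23781115 it had 33 and 25 counts in B6 and 9 and 7 in D2 (log2 fold change -1.91 ± 0.44, SE; adjusted p = 0.000751, edgeR), a call lost without B6 replicate 1 (adjusted p = 0.116, edgeR).

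Its contacts with part 1 fell too. Between the parts the Btn2a2 anchor had 271, 266, 121 and 99 counts, a log2 ratio of -1.28 in CPM. Its pairs with the Hist1h2ag, Zfp184 and Mir1983 anchors fell by 1.42, 1.37 and 1.24 on the log2 scale (adjusted p = 0.0024, 0.00302 and 0.00363, edgeR), and in each of them both D2 libraries were below both B6 libraries. These 3 calls were not made by DESeq2, nor with a minimum of 10 counts in place of 20 (adjusted p between 0.0898 and 0.107, edgeR). All were lost without B6 replicate 2 (adjusted p between 0.0704 and 0.208, edgeR), and that with Mir1983 also without B6 replicate 1 (adjusted p = 0.0924, edgeR).

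The anchors just centromeric of Abt1 went the other way. Neither covers the start of an annotated gene other than tRNA genes, of which the first (chr13:23398382-23403761) holds 2 and the second (chr13:23408921-23417897) 3. The first had 102 and 130 counts in B6 and 317 and 302 in D2 (means 40.7 ± 8.02 and 109 ± 8.45 CPM, SD, n = 2), and its log2 fold change was 1.45 ± 0.17 (SE; adjusted p = 2.73e-08, edgeR). The second had 224 and 286 counts in B6 and 484 and 511 in D2 (means 89.6 ± 17.7 and 174 ± 0.923 CPM, SD, n = 2), and its log2 fold change was 1.00 ± 0.16 (SE; adjusted p = 2.42e-05, edgeR). These and the Btn2a2 anchor were the 3 anchors called in every setting. All 13 tested pairs of the first and 15 of 16 of the second, which enter these totals and are no separate support, had a log2 fold change above 0. The contact between them was 7 and 13 counts in B6 and 56 and 56 in D2, with a log2 fold change of 2.40 ± 0.38 (SE; adjusted p = 1.16e-08, edgeR), and it was called in every setting. With Abt1, the first had 15, 17, 44 and 43 counts (log2 fold change 1.37 ± 0.34, SE; adjusted p = 0.00443, edgeR) and the second 68, 64, 147 and 132 (1.01 ± 0.24, SE; adjusted p = 0.00333, edgeR), and both calls were lost without B6 replicate 1 (adjusted p = 0.279 and 0.273, edgeR) and without B6 replicate 2 (0.108 and 0.269). Their contacts with part 1 were 68 and 71 counts in B6 and 172 and 177 in D2, and of these the pair of the first with Hist1h2ag rose, from 1 and 4 counts to 20 and 11 (adjusted p = 0.00661, edgeR). That call was lost without either B6 library (adjusted p = 0.439 and 0.0525, edgeR). Abt1, between them and Btn2a2, changed little in total, with a log2 fold change of 0.10 ± 0.18 (SE; adjusted p = 0.812, edgeR), and the anchor next to the first of them, just outside part 2, had 79, 76, 87 and 74 counts.

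In sums over the parts these opposite changes offset each other. The counts within part 2 were 1332, 1401, 1350 and 1164, with means of 479 ± 29.8 CPM (B6) and 442 ± 65.3 CPM (D2; SD, n = 2 each), and the strains overlapped (log2 ratio -0.12). Without the Btn2a2 anchor, a choice made after these values were seen, the counts were 716, 704, 1014 and 879, and both D2 libraries lay above both B6 libraries (log2 ratio 0.42). Between the parts the log2 ratio was likewise 0.05 with that anchor and 0.41 without it, where the counts were 576, 582, 858 and 672. Among pairs within part 2, 3 rose and 4 fell of 39 tested, and between the parts 1 rose and 6 fell of 45.

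**Figure D4:**
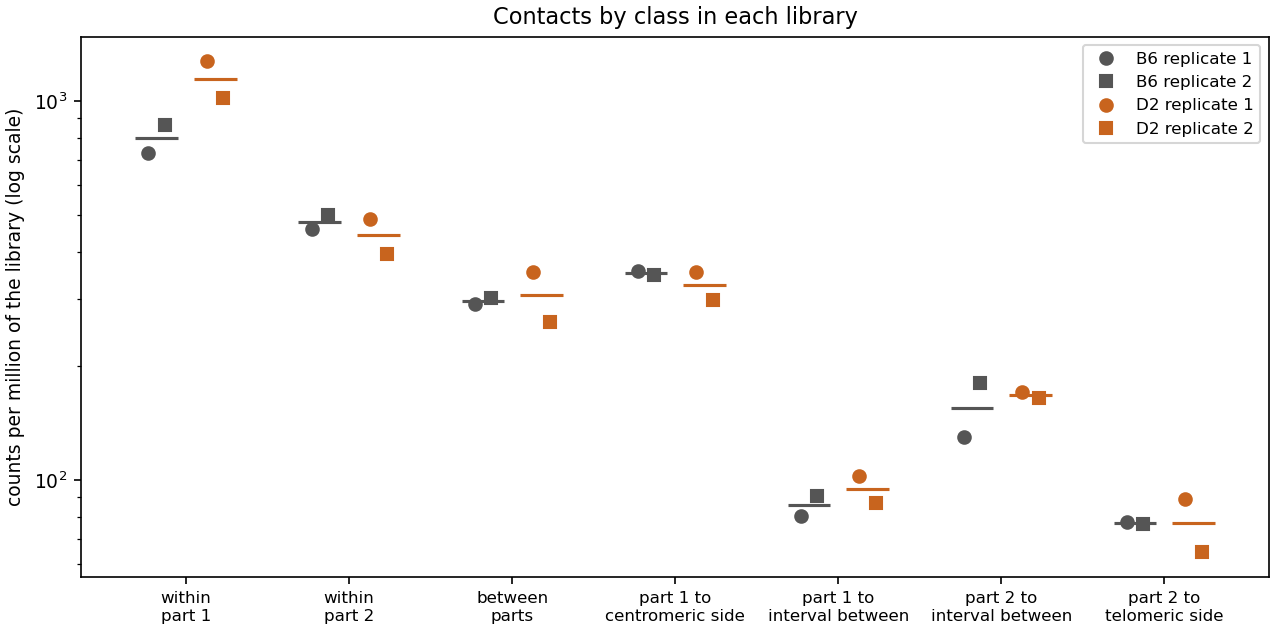
CPM (vertical axis, log scale) summed over each class of contacts, with 1 point per library and a line at the mean of each strain. The D2 points lie above the B6 points within part 1 only, and D2 replicate 1 is the highest library within part 1 and between the parts.

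Contacts within part 1 summed to 2123, 2421, 3519 and 2987 counts, with means of 797 ± 95.0 CPM (B6) and 1143 ± 182 CPM (D2; SD, n = 2 each), a log2 ratio of 0.52. Both D2 libraries lay above both B6 libraries. This sum has no test, since with 2 libraries a strain the smallest p of an exact two-sided permutation test is 0.33. Leaving out 1 library at a time moved the log2 ratio between 0.35 and 0.67, with the lowest value without D2 replicate 1. The rise was spread along part 1: 16 of its 19 tested anchors had both D2 libraries above both B6 libraries in CPM, where 21.5% of all tested anchors did, and the median log2 fold change over all 19 was 0.44, against 0.01 over all anchors. The lowest of these values was 0.18, and without D2 replicate 1 the Hist1h2ag anchor was at -0.21. Among its 82 tested pairs 65 had a log2 fold change above 0, and their median was 0.40, against 0.02 over all pairs. Anchors of a part share pairs with each other, so that these counts are not independent. Of the 82 pairs 5 rose and none fell by edgeR, and DESeq2 called none. An unadjusted p under 0.05 was found for 21 of the 82, and for 12681 of all 108034 pairs. Without B6 replicate 1, B6 replicate 2 or D2 replicate 1 no pair within part 1 was called.

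The anchors of part 1 that rose were 3. The anchor of Hist1h4k, Hist1h2ak and Hist1h2bn (chr13:21744910-21763760), whose promoters are printed above, had 341, 352, 617 and 416 counts, with D2 replicate 1 far above the rest (log2 fold change 0.63 ± 0.18, SE; adjusted p = 0.0165, edgeR). Without D2 replicate 1 its log2 fold change was 0.20 (adjusted p = 0.525, edgeR). The anchor at chr13:21880088-21887008, with 2 tRNA genes and no gene start, had 79.2 ± 3.60 CPM in B6 and 116 ± 2.13 in D2 (SD, n = 2; log2 fold change 0.58 ± 0.16, SE; adjusted p = 0.0103, edgeR), and the strains did not overlap. The third was the anchor of Hist1h2bq, Hist1h2ao and Hist1h4m (0.78 ± 0.25, SE; adjusted p = 0.0354, edgeR), where only 7.60% of stretches of read length occur once in the genome, so that counts of its nearly identical histone genes are uncertain. Without B6 replicate 1 or B6 replicate 2 none of the 3 was called. Among histone anchors of both parts, 2 of 10 rose and none fell, where 2.67% of all tested anchors rose and 7.08% fell. DESeq2 called none of the 10. An unadjusted p under 0.05 was found for 6 of the 10, and for 11361 of all 51820 anchors.

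The 5 pairs within part 1 that rose included histone and tRNA anchors. The anchors of Hist1h4k and of Hist1h1b, 30.2 kb apart, had 66 and 67 counts in B6 and 174 and 102 in D2 (log2 fold change 0.99 ± 0.24, SE; adjusted p = 0.00458, edgeR). The anchors of Hist1h2bl and Hist1h4k, 30.7 kb apart, had 75, 105, 204 and 128 (0.82 ± 0.23, SE; adjusted p = 0.0283, edgeR). The anchors of Hist1h4n and Mir1983 had 98, 126, 224 and 192 (0.83 ± 0.22, SE; adjusted p = 0.0219, edgeR). In each of these the D2 libraries were above the B6 libraries and D2 replicate 1 was the highest. On the Hist1h4n anchor, 61.2% of stretches of read length occur once in the genome. The Mir1983 anchor had 48, 51, 95 and 95 counts with the tRNA anchor at chr13:21880088-21887008, and the Zfp184 anchor had 3, 5, 16 and 17 with an anchor 24.5 kb away that holds no gene start (adjusted p = 0.0338 and 0.0273, edgeR). The pair with the most counts in part 1, Mir1983 with Zfp184, had 154, 163, 248 and 226 counts and did not pass the test (0.51 ± 0.22, SE; adjusted p = 0.282, edgeR).

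**Figure D5:**
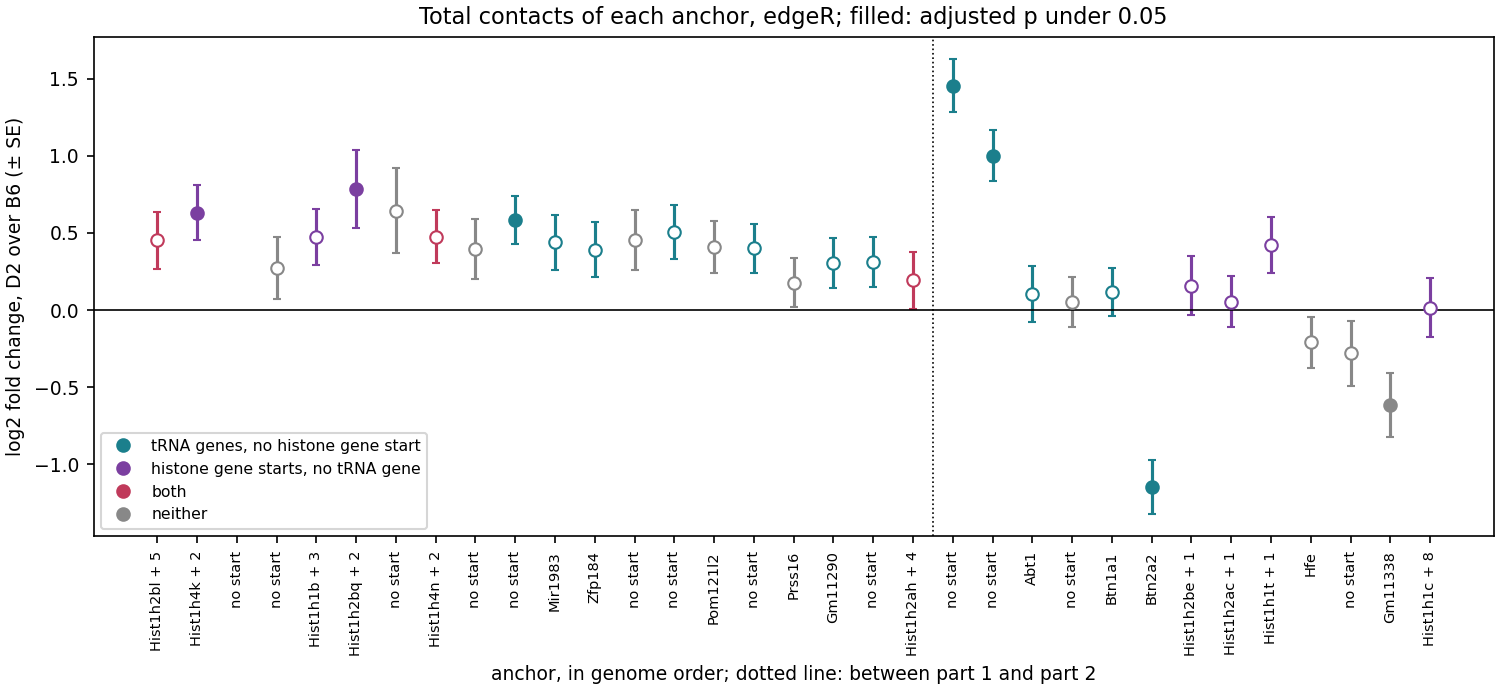
Log2 fold change of D2 over B6 with its standard error (vertical axis) for the total contacts of each tested anchor in genome order (horizontal axis), coloured by tRNA genes and histone gene starts and filled where the adjusted p was under 0.05. All 19 tested anchors of part 1 lie above 0, and part 2 holds both the highest anchors (1.45 and 1.00) and the lowest, Btn2a2 at -1.15.

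In part 2 beyond Btn2a2, the anchors of the telomeric histone genes passed no test. The anchor with 9 histone gene starts had 517, 524, 633 and 376 counts (log2 fold change 0.02, adjusted p = 0.977, edgeR), with D2 replicate 1 the highest library and D2 replicate 2 the lowest. Its direction rested on those libraries: it was -0.53 without D2 replicate 1 and 0.42 without D2 replicate 2, and each was then called (adjusted p = 0.0077 and 0.0227, edgeR). The anchor of Hfe, the iron regulator behind haemochromatosis, had 150, 144, 121 and 127 counts (log2 fold change -0.21, adjusted p = 0.507, edgeR). That of Gm11338 fell, from 85 and 82 to 58 and 48 counts (log2 fold change -0.62 ± 0.21, SE; adjusted p = 0.0477, edgeR), a call that 7 of the 10 other settings did not make. Of contacts to elsewhere on the chromosome, none was called by edgeR or DESeq2. At an unadjusted p under 0.05 there were 2 of 38 tested from part 1 to the centromeric side and 10 of 27 from part 2 to the interval between, against the 12681 of 108034 over all pairs. Summed, the former held 352 ± 6.24 CPM (B6) and 326 ± 38.5 CPM (D2), and the latter 155 ± 35.8 and 168 ± 3.86 CPM (SD, n = 2 each), with the strains overlapping in both.

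Genes elsewhere in the genome that act on histone genes mostly passed no test. Of 20 genes for histone transcription and message processing, 19 had an anchor at a start site and Coil had none. Their median log2 fold change was 0.17, against 0.01 over all anchors. By edgeR none rose and 1 fell, where 7.08% of all anchors fell. At an unadjusted p under 0.05 there were 6 of 19, against 11361 of 51820 over all anchors. The 1 that fell was Cpsf3, the endonuclease that cuts histone messages, with 163 and 170 counts in B6 and 94 and 121 in D2 (log2 fold change -0.60 ± 0.17, SE; adjusted p = 0.0134, edgeR). Npat, the activator that nucleates the histone locus body, had 96, 85, 141 and 98 counts (0.45 ± 0.19, SE; adjusted p = 0.151, edgeR), and Slbp, which binds the stem-loop, had 401, 318, 468 and 415 (0.34 ± 0.17, SE; adjusted p = 0.221, edgeR). The 14 genes of the smaller histone clusters Hist2h, Hist3h and Hist4h lay on 5 anchors, of which none rose and 1 fell, that of Hist4h4, with 350, 304, 235 and 177 counts (-0.62 ± 0.17, SE; adjusted p = 0.0124, edgeR).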

How the data were processed

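The authors' deposited series table gives raw read-pair counts for each pair of anchors, and the authors' deposited file of each library gives the same counts with a q-value per pair. The submitters' processing notes name HiC-Pro 2.11.4, DESeq2 and mm10; the loop caller and what the q-values test are not given in the sources used here. DBA/2J sequence was not analysed here. Counts were scaled by library totals (CPM). Pairs with at least 20 counts, and anchors with their counts summed over pairs, were tested on all 4 libraries with edgeR 4.0.16 (TMM, quasi-likelihood, Benjamini-Hochberg over the whole table), in R 4.3.3, with strain as the only term; the code was tested on simulated data. Named pairs had the most counts per class or the smallest adjusted p. The members and lists were chosen with earlier results of these data known, and the tRNA grouping after the contact map was seen. Lines were separate, so p-values cover the spread between 2 lines per strain. Replicate numbers name different lines and did not pair them (correlation of deviations -0.0456 over 13804 pairs).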

Additional observations from a re-analysis of the deposited data

How the results depend on the processing

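With 2 lines per strain, the calls depended on the test and its filter more than the directions did. The counts of changed pairs, over the whole table and among the members, were 1565 and 19 as reported. They were 81 and 2 with DESeq2, 235 and 2 with a minimum of 10 counts, 759 and 12 with no minimum, and from 343 to 2131 and from 4 to 19 when 1 library was left out. The counts of changed anchors were 5054 and 7, then 1307 and 3 with DESeq2, 2563 and 4 with no minimum, and from 2533 to 7700 and from 3 to 16 when 1 library was left out. Among member anchors the count rose to 11 with chromosome totals and to 12 with the replicate block, where the numbers do not pair the lines. The replicate block called 18 member pairs, all among the 19. The 2 pairs called by DESeq2 were Abt1 with Btn2a2 and the pair of anchors centromeric of Abt1. Of 356 values of named pairs and anchors under these settings, 284 kept their call, 61 lost it, 10 gained it and 1 reversed: the anchor of 9 histone gene starts, at -0.53 without D2 replicate 1.

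The log2 ratio between the parts ran from -0.18 (without D2 replicate 1) to 0.25, within part 2 from -0.28 to 0.03 and within part 1 from 0.35 to 0.67 when 1 library was left out. Leaving out the Btn2a2 anchor, an alternative added after seeing the data, gave 0.42 within part 2 and 0.41 between the parts. Other scalings, midpoints, q-values under 0.01 and pairs at least 20 kb apart moved these by less than 1 SD. Observed over expected counts within part 1, within part 2 and between the parts were 0.870, 1.11 and 5.90 with anchor widths and 0.658, 1.17 and 3.71 with anchor totals. With chromosome 13 alone they were 4.91 and 6.45 within the parts. Leaving out 1 library gave 3.17 to 3.76, 4.44 to 4.82 and 27.3 to 30.6. For tRNA anchors between the parts the ratio was 9.88 with widths, and 84.6 to 95.3 without 1 library. It was not taken with anchor totals.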
